A study of Mus musculus with 6 samples.

Results

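The genes described here encode the doublecortin kinases (*Dclk1* and *Dclk2*), the collapsin response mediator proteins or CRMPs (*Crmp1*, *Dpysl2*, *Dpysl3*, *Dpysl4* and *Dpysl5*) and the microtubule-associated proteins MAP1B and MAP2 (*Map1b* and *Map2*). The 9 genes were chosen by symbol, and the choice was made with the authors' fold changes of *Dclk1* and *Dpysl3* known. The deposited table as used here gives 8 of them among 20624 genes, and *Dpysl4* was not analysed here. RNA was sequenced from 3 *Pkd1*-/- and 3 wild type samples of mDCT15, a mouse cell line of the distal convoluted tubule, without treatment. All samples were grown in the same serum-containing medium. The *Pkd1*-/- line was made by CRISPR-Cas9 editing, and its samples are given as -/- in their titles but as a knockdown in the genotype field. Whether that line is 1 clone is not given in the sources used here.

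The table holds 1 measured level per gene, the authors' mean normalized count over the 6 samples, beside the authors' own comparison of the genotypes. That comparison was not used, so the text below describes levels in the pooled samples and makes no statement on a difference between *Pkd1*-/- and wild type cells. A pooled mean does not show whether a gene was expressed in both genotypes, and it gives no spread between samples. The depth of each sample is unknown. Neighbouring levels therefore could not be tested against replicate error, and each order given below is an order of means only.

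Doublecortin kinases carry doublecortin domains, which bind and stabilise microtubules, and a serine/threonine kinase domain. CRMPs are relatives of the enzyme dihydropyrimidinase that bind tubulin and are best known for relaying semaphorin 3A signals in growing axons. MAP1B and MAP2 bind along microtubules and are classically studied in neurons. In kidney epithelia, microtubules run along the cell axis and build the core of the primary cilium, the organelle in which the product of *Pkd1* resides.

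The sequence before an annotated start site is shown for *Dclk1*, whose count merges transcripts from distant starts, and for genes at other levels. The sequences were taken from the RefSeq promoter table of build GRCm38.p6 and each had 1 exact match on its chromosome of GRCm39, whose coordinates are given. Only the bases before the first exon base in GENCODE are printed, from 5′ to 3′ on the strand of the gene, and capitals mark CpG dinucleotides. The first *Dclk1* sequence lies at chr3:55149535-55149617 on the plus strand and holds 1 CpG in 83 bases. The second lies inside the gene at chr3:55368899-55369148 and holds 4 CpGs in 250 bases. The *Dpysl5* sequence lies at chr5:30868658-30868907 on the plus strand, with 17 CpGs in 250 bases. The *Map1b* sequence lies at chr13:99653138-99653360 on the minus strand, with 14 in 223 bases, and the first *Crmp1* sequence at chr5:37399152-37399283 on the plus strand, with 18 in 132 bases.
*Dclk1*, first start: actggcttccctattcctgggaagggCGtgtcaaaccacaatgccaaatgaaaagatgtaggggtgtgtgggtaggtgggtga
*Dclk1*, second start: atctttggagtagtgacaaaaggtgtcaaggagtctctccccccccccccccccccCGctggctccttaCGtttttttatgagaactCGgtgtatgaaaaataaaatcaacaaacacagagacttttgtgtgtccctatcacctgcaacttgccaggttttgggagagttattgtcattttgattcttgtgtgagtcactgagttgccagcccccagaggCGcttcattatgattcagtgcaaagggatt
*Dpysl5*: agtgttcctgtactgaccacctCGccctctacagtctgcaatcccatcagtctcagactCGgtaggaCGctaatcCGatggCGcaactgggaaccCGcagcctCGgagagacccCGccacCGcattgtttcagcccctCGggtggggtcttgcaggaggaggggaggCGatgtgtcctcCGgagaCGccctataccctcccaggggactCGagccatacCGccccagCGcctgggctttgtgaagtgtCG
*Map1b*: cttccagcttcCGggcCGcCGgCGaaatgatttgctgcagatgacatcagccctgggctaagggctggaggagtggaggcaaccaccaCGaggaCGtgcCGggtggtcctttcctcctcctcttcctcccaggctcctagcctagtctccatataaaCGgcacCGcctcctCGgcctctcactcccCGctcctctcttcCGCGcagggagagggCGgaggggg
*Crmp1*, first start: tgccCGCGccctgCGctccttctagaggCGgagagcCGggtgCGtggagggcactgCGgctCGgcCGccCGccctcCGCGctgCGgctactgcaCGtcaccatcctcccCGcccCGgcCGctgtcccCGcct

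CpG content was also counted in the whole 250 bases before each RefSeq start. Both *Dclk1* windows held 4 CpGs, a number reached by 62.2% of the 32851 promoters in the table. *Dclk2* held 21, which 16.3% of promoters reached, and *Map2* held 34, which 3.53% reached. Before the first GENCODE exon base, however, the *Dclk2* window held only 1 CpG in 125 bases, and that of *Map2* held 8 in 89. A stretch poor in CpG before the first exon was thus not particular to *Dclk1*. *Map1b* had 19, *Dpysl5* had 17, and the *Crmp1* windows had 30 and 16. *Crmp1*, the lowest of the genes in expression, thus had a CpG-rich first window, and *Dclk1*, with a far higher mean, had windows poor in CpG. The median over all promoters was 6. For genes with a mean of at least 100 in the table, the richest window of a gene held a median of 18 CpGs (8161 genes with a promoter entry), against 6 for genes with a mean under 10 (2116 genes). *Dpysl2* and *Dpysl3* were not matched in the promoter table.

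The means of all genes in the table began at 0.618. Of the 8 genes, 7 had a mean normalized count of at least 100, as did 50.3% of all genes. The same 7 lay above the median of all genes, 104.5. The means of *Dpysl2*, *Map1b*, *Map2* and *Dclk1* were above 1000, a level reached by 20.9% of all genes. The exception was *Crmp1*, with a mean of 3.86. The curve of all genes with the members on it shows this gap below *Dpysl3*. Among the 13862 protein-coding genes alone, *Dpysl3*, the lowest of the 7, was at percentile 36.2, so most of that set had a higher mean.

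**Figure D1:**
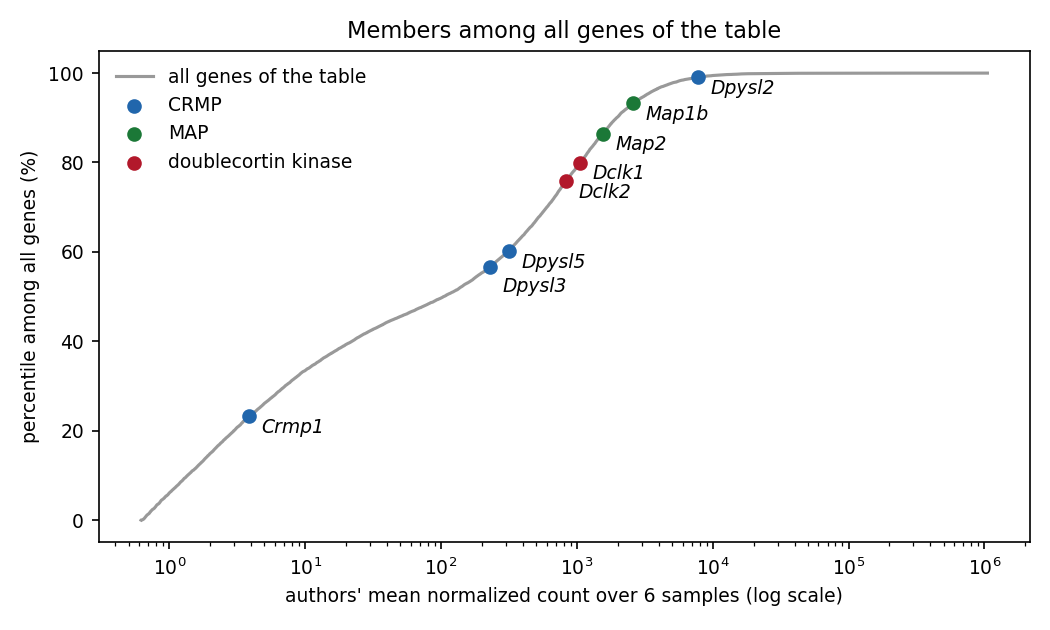
Percentile of each gene among the 20624 genes of the table (vertical axis) against the authors' mean normalized count over 6 samples (horizontal axis, log scale). The grey line stands for all genes and the coloured points for the 8 members by family. *Dpysl2* lies at percentile 99.1 and *Crmp1* at 23.2, with the other members between 56.6 and 93.2.

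Among the doublecortin kinases, *Dclk1* (ENSMUSG00000027797) is a plus-strand gene at chr3:55149618-55446493 in GRCm39 (the build of all coordinates below). Its authors' mean normalized count was 1057, at percentile 80.0 of all genes. *Dclk2* (ENSMUSG00000028078) is a minus-strand gene of the same chromosome, chr3:86690138-86828316. Its mean was 832, at percentile 75.8. The kinases were thus counted at similar levels, with a ratio of 1.27 for *Dclk1* over *Dclk2*.

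Longer genes collect more reads, so levels of different genes are compared per kb of exon. Per kb of all exons of the gene, *Dclk1* had 48.5 and *Dclk2* 59.3 normalized counts. Per kb of the longest transcript the order turned, with 117 for *Dclk1* and 95.0 for *Dclk2*. It was also turned per kb of the longest coding sequence, with 444 and 359. Which kinase transcript was more abundant therefore depends on the length used. The third doublecortin-like kinase gene, *Dclk3*, had a mean of 537 and, with its shorter exons, 146 per kb of all exons.

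A gene count merges all forms of *Dclk1*. GENCODE lists 30 coding transcripts, of which 23 begin their coding sequence at 55154572, with a coding length of up to 2379 bases, and 7 begin it at 55369485, with at most 1356 bases. The later start lies just downstream of the second promoter sequence shown above. Forms from the later start lack the doublecortin domains encoded before it. All 34 coding transcripts of *Dclk2* share 1 coding start, with coding lengths from 1725 to 2316 bases. The deposited values hold nothing that would split the *Dclk1* mean between these forms.

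Of the CRMP genes, *Dpysl2* (ENSMUSG00000022048, encoding CRMP2) dominated. It is a minus-strand gene at chr14:67040313-67148522. Its mean normalized count was 7729, which only 184 genes of the table exceeded. It made up 93.4% of the summed mean of the 4 CRMP genes in the table, and 92.5% of the sum per kb of all exons. Its level per kb, 820, was above that of *Gsk3b*, *Cdk5* and *Rock2*, which encode kinases known to phosphorylate CRMP2.

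*Dpysl5* (ENSMUSG00000029168, encoding CRMP5) is a plus-strand gene at chr5:30868908-30956719. Its mean was 314, at percentile 60.2. *Dpysl3* (ENSMUSG00000024501, encoding CRMP4) is a minus-strand gene at chr18:43454049-43571532. Its mean was 229, at percentile 56.6. Both stood far below *Dpysl2*, which per kb of all exons was 25.7 times the level of *Dpysl5* and 24.3 times that of *Dpysl3*.

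The order of *Dpysl5* and *Dpysl3* depended on the length, as it did for the kinases. Per kb of all exons they had 32.0 and 33.8, and per kb of the longest transcript 60.5 and 40.5. Set against the 13862 protein-coding genes of the table alone, *Dpysl5* fell to percentile 41.3 and *Dpysl3* to 36.2, below the middle of that set.

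*Crmp1* (ENSMUSG00000029121, encoding CRMP1) is a plus-strand gene at chr5:37399284-37449481. Its mean of 3.86 was at percentile 23.2, and 15840 genes were higher. It made up 0.0467% of the summed CRMP mean. Its exons share 461 bases with exons of *Evc* on the opposite strand, a gene of the primary cilium with a mean of 1953. The paper names the library kit (KAPA RNA HyperPrep with RiboErase) and default counting parameters for HTSeq. It does not state whether the strand setting suited the library. How reads from this stretch were assigned between *Crmp1* and *Evc* therefore cannot be told from the deposited values. The open strand setting bears on the counts of all genes, not on this stretch alone.

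Of the microtubule-associated proteins, *Map1b* (ENSMUSG00000052727) is a minus-strand gene at chr13:99557954-99653137. Its mean normalized count was 2603, at percentile 93.2. *Map2* (ENSMUSG00000015222) is a plus-strand gene at chr1:66214327-66481746. Its mean was 1551, at percentile 86.5. Per kb of all exons, *Map1b* had 158 and *Map2* had 74.6, a ratio of 2.11. The ratio was 1.37 per kb of the longest transcript and 1.36 per kb of the longest coding sequence, so *Map1b* was ahead under each length. GENCODE lists 35 coding transcripts of *Map2* with 6 coding starts, and the mean merges them.

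**Figure D2:**
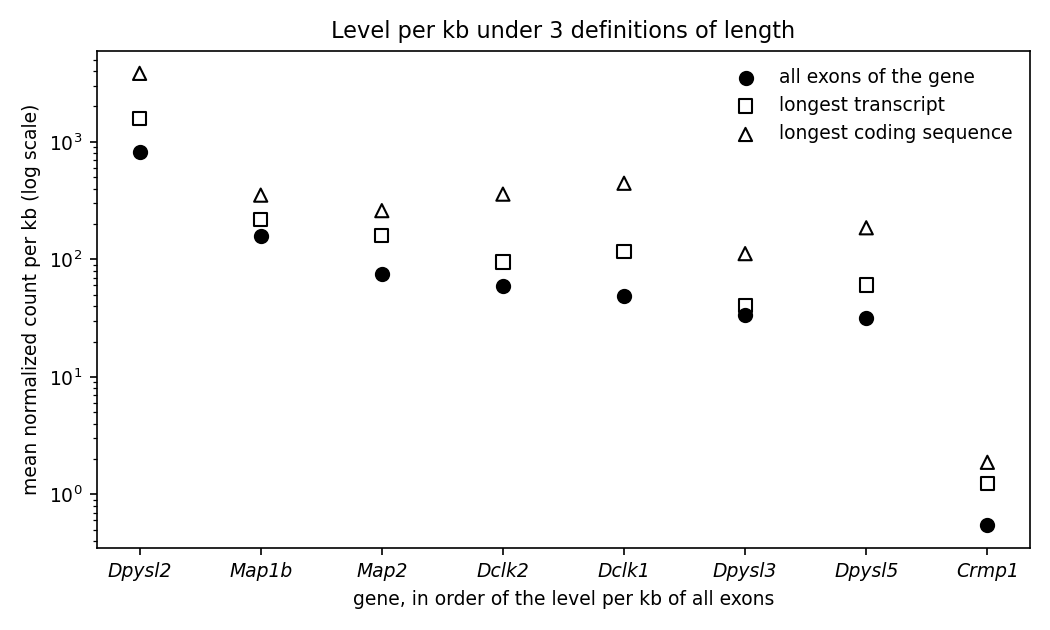
Mean normalized count per kb (vertical axis, log scale) of each gene (horizontal axis), with filled circles for the length of all exons, squares for the longest transcript and triangles for the longest coding sequence. *Dpysl2* is highest and *Crmp1* lowest under each length, while *Dclk1* and *Dclk2*, and *Dpysl3* and *Dpysl5*, change places. Per kb of the longest coding sequence alone, *Dclk1* and *Dclk2* are also ahead of *Map1b* and *Map2*.

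Reads that fit several genes can be left out or misplaced in counting. Each gene was therefore checked for 42-base stretches, the read length, that also occur in transcripts of another gene. Stretches were matched on both strands, so they include overlaps with exons of genes on the opposite strand at the same place. Such overlaps, also given below in exon bases, were not separated from sequence repeated elsewhere, for the members or for the tubulins. *Dclk2* and *Dpysl3* shared 0% of the stretches in their coding transcripts. *Map2* shared 0.640%, *Map1b* 1.94%, *Dpysl5* 4.14%, *Dclk1* 6.63%, *Crmp1* 6.86% and *Dpysl2* 7.71%. Exons of other genes on the same strand covered 0 bases of any member. On the opposite strand, *Dclk1* shared 1481 exon bases, or 6.80%, with other genes, of which 1367 lay in the gene model *Gm65797*. *Dpysl2* shared 808 exon bases, or 8.57%, of which 632 lay in *Pnma2*, whose mean was 97.0. Among tubulin genes the share of stretches ran from 0.503% for *Tubb4a* and 4.59% for *Tubb3* to 69.0% for *Tuba1a* and 72.3% for *Tubb2a*.

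The other genes of the microtubule system are given from lists of related genes, with the highest pair and the lowest gene of each list by mean. Of all genes in the table, 66.5% had a mean of at least 10, and the counts below are to be read beside that share. Of 14 other genes for microtubule-associated proteins, 12 were in the table and 11 had a mean of at least 10. *Map4*, the broadly expressed relative of MAP2, had a mean of 4496 and 268 per kb of all exons. *Map7d1* had 2494 and 334, and *Map6d1* had 6.86 and 1.27. *Map4* was thus above both *Map1b* and *Map2* per kb.

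Semaphorin 3A, its receptor genes and *Mical1* were listed as the pathway upstream of the CRMPs. Of these 7 genes, 5 were in the table, each with a mean of at least 100, as had 50.3% of all genes. The other listed genes, *Plxna4* and *Mical1*, were not analysed here. The ligand gene *Sema3a* had a mean of 4166 and 266 per kb of all exons. The receptor gene *Plxna1* had 3634 and 233, and the co-receptor gene *Nrp1* 821 and 53.9. The ligand, receptors of both kinds and the CRMP2 gene were therefore all measured in this line.

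All 14 genes for kinases and activators known to act on CRMP or MAP proteins were in the table, and 12 had a mean of at least 10. *Gsk3b*, whose kinase phosphorylates CRMP2 after priming by CDK5, had a mean of 4466 and 454 per kb of all exons. *Rock2* had 3822 and 240, while *Cdk5r2*, an activator of CDK5, had 2.67 and 0.953. *Cdk5*, named here after its value was seen, had 589 and 149.

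All 13 tubulin genes were in the table, and 11 had a mean of at least 10. *Tubb5* had a mean of 33372 and 9992 per kb of all exons, *Tuba1a* 5068 and 2797, and *Tuba8* 0.645 and 0.231. *Tuba1a*, *Tubb5* and *Tuba8* shared 69.0%, 45.0% and 14.9% of their stretches with other genes, so these values are uncertain. Of 16 genes for end-binding, destabilising and severing proteins, 14 were in the table and all 14 had a mean of at least 10. *Mapre1*, encoding the end-binding protein EB1, had a mean of 5371 and 333 per kb of all exons, *Clasp1* had 3433 and 156, and *Stmn4* had 18.8 and 3.26.

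**Figure D3:**
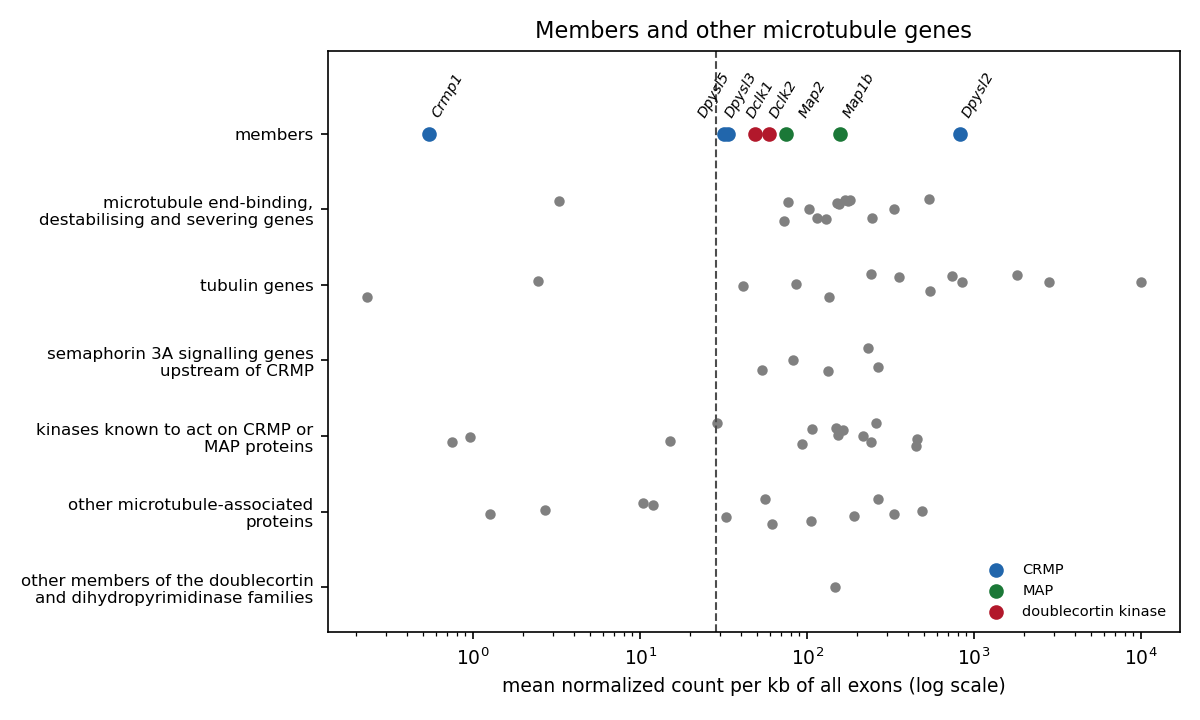
Mean normalized count per kb of all exons (horizontal axis, log scale) for the 8 members (top, coloured by family) and the genes of each list (grey points, spread vertically for clarity). The dashed line is the median of the table's genes found in GENCODE, 28.6, with 7 members to its right and *Crmp1* to its left.

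Marker genes were used to check the labelled cell type. Of 12 genes listed as markers of the distal convoluted tubule, 7 were in the table and 6 had a mean of at least 10. How far each listed gene is restricted to that segment was not checked. The 6 were *Wnk1* at 8468, *Cdh16* at 4680, *Kcnj16* at 428, *Wnk4* at 413, *Kcnj10* at 38.3 and *Trpm6* at 29.6. *Klhl3* had a mean of 5.70. The defining markers *Slc12a3*, which encodes the thiazide-sensitive cotransporter, and *Pvalb* were not analysed here, nor were *Calb1*, *Slc8a1* and *Fxyd2*. Without the defining markers, the values of the others do not decide the labelled cell type. Since the members are known from neurons, 12 neuronal markers were read as well. Of these, 6 were in the table, with a summed mean of 423, and 2 had a mean of at least 10, *Eno2* at 353 and *Syt1* at 52.0. The lowest was *Elavl3* at 0.844. *Dclk1* also marks tuft cells, for which 3 of 8 markers were in the table, with means from 3.96 to 7.67. Of 7 fibroblast markers, 6 were in the table, and *Col1a1*, at 201, alone had a mean of at least 10. The lowest was *Col3a1* at 2.44. The part of other cell types in the members' levels was not tested. The targeted gene, *Pkd1* (chr17:24768808-24815482), had a mean of 3175 over both genotypes, which cannot check the labels.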

How the data were processed

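RNA of 3 *Pkd1*-/- and 3 wild type mDCT15 samples was depleted of ribosomal RNA and sequenced as 42-base read ends. Per the paper's methods, the authors trimmed reads with Trim Galore 0.4.5, mapped them with STAR 2.7.5a to GRCm39 (Ensembl release 105) and counted them per gene with HTSeq 0.11.0. The authors deposited, as the only signal per gene, the mean over all 6 samples of counts divided by size factors from DESeq2 1.22.0. The other 5 numeric columns hold the authors' own fold changes, standard errors, statistics and p-values, and none was used. Designs planned for values of single samples were therefore replaced by a description without a test.

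Percentiles give the share of genes with a lower mean. Exon lengths and coordinates came from GENCODE M39 on GRCm39, which held 20122 (97.6%) of the identifiers. Its transcripts gave the 42-base stretches, read on both strands. The functions were tested on simulated data with 200 cases each. Python 3.11.15, numpy 2.4.6 and pandas 2.3.3 were used. The members and lists were chosen with earlier results of these data known. Besides the members and *Pkd1*, the rule named the highest pair and the lowest of each microtubule list by mean. Marker genes, *Cdk5*, genes with overlapping exons and the tubulins at the ends of the range of shared stretches were named outside it, after their values were seen. *Plxna4* and *Mical1* were named as listed genes that were not analysed. Alternatives were other gene sets, lengths and minimum means.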

Additional observations from a re-analysis of the deposited data

How the results depend on the processing

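No paired analysis was possible because the table holds no values of single samples, and for the same reason the alternatives planned for a comparison of the genotypes (leaving out replicates, another normalization, other pseudocounts and no filter on low values) were not run. The number of genes with a mean of at least 10 was 7, and it was also 7 with a minimum mean of 5 or of 100. Percentiles depended on the genes they were taken over. Over the 13724 genes that reached a mean of 10, *Dpysl2* was at 98.7 and *Dpysl3* at 34.8, and *Crmp1* is not in that set. Among protein-coding genes *Crmp1* was at 9.97. Of the 8 genes, 2 (*Dpysl2* and *Crmp1*) kept their place in the order per kb under each of the 3 lengths. The GENCODE release is not the annotation used for counting, and levels per kb under that annotation were not computed. Without depth or spread, no interval can be given for a level.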

Other observations

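Windows as poor in CpG as those of *Dclk1* were uncommon among genes at its level. Of the 8161 genes that reached a mean of 100 and have a RefSeq promoter, 314 (3.85%) had at most 4 CpGs in the 250 bases before every listed start, *Dclk1* among them. The share was 21.3% of the 1595 genes with a mean from 10 to 100 and 37.5% of the 2116 genes with a mean under 10. The first GENCODE exon of *Dclk1* begins within its first window, so the count depends on where the start is placed. *Crmp1* was the reverse case, with 30 CpGs in its first window, a number that 5.94% of promoters reach, and a mean of 3.86. These counts were made after the members' values were seen and were not tested. The limit of 4 CpGs was the count of the *Dclk1* windows themselves.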
